A study of Arabidopsis thaliana with 18 samples.

Results

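Steady risers are the probe sets whose signal climbed through both intervals of a seed development series, in both accessions that were compared. A probe set is a group of short array probes that read 1 transcript or a few similar ones. From the mean log2 signal of the 3 samples in each group, a probe set was taken if it rose by at least 0.8 from 8-9 to 10-11 days and by at least 0.8 again from 10-11 to 12-13 days, in Col-0 and in C24. Of 22746 probe sets, 152 met all 4 conditions (0.668%). The platform's gene table pairs 85 of the 152 with 1 gene (55.9%, against 59.4% of all probe sets), 7 with several genes, and does not list 60, which are counted but not named.

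Developing seeds of Arabidopsis thaliana were compared between Col-0, the reference accession, and C24, another natural accession, neither of which carries an introduced allele. Flowers were marked as they opened and pods were taken 8-9, 10-11 or 12-13 days (d) later, so each group spans 2 days of age. There were 3 pools of seeds for each accession and age, 18 arrays in 6 groups, with 200 mg of seeds per RNA sample. RNA was hybridised to Affymetrix arrays, and the values are log2 signals from RMA, a method that normalizes arrays to each other and summarises the probes of a set. Each pool held the seeds of 48 siliques (seed pods), 8 from each of 6 plants, and plants of both growth experiments went into every pool. All plants grew with 16 h of light, and no other treatment was given. The same plants could have supplied several pools, and p-values therefore reflect only how far pools differ. Accession and age come from the titles, descriptions and genotype entries, which match, whereas the source name field carries the opposite accession for each of the 18 samples.

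In this stretch of development the embryo passes from filling with storage protein and oil to the late program that prepares the seed for drying. Late embryogenesis abundant (LEA) proteins, which protect other proteins and membranes in dry cells, are the best known products of that late program. The seed coat meanwhile lays down lipid and phenolic barriers, and lipid transfer proteins and acyltransferases are known for roles in building such barriers. Seeds were extracted whole, so fewer cells of a type and less RNA per cell cannot be told apart.

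The members were chosen by the 4 step changes, so these and the whole rise, which is their sum, are given below as descriptions without a test. The median member rose by 1.78 and then 1.51 on the log2 scale in Col-0, and by 2.09 and then 1.19 in C24. Over all probe sets the 4 medians were -0.02, 0.03, 0.03 and -0.00. Among members the first step ranged from 0.82 to 8.48 (Col-0) or 0.81 to 8.21 (C24), and the second from 0.81 to 5.48 or 0.81 to 4.63. The median whole rise was 3.54 in Col-0, with a range of 1.82 to 9.70, and 3.41 in C24, with a range of 1.86 to 9.12. For all 152 members the 3 pools of each age lay above the 3 pools of the preceding age in both accessions, which was so for 1113 of all probe sets (4.89%). The rule fixes most of that separation. At 8-9 d, 27 members had a mean under 4.5 in both accessions, toward the lower end of the scale, where RMA compresses differences, and 91 had one under 6, close to the array medians of 5.84 to 5.96.

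**Figure D1:**
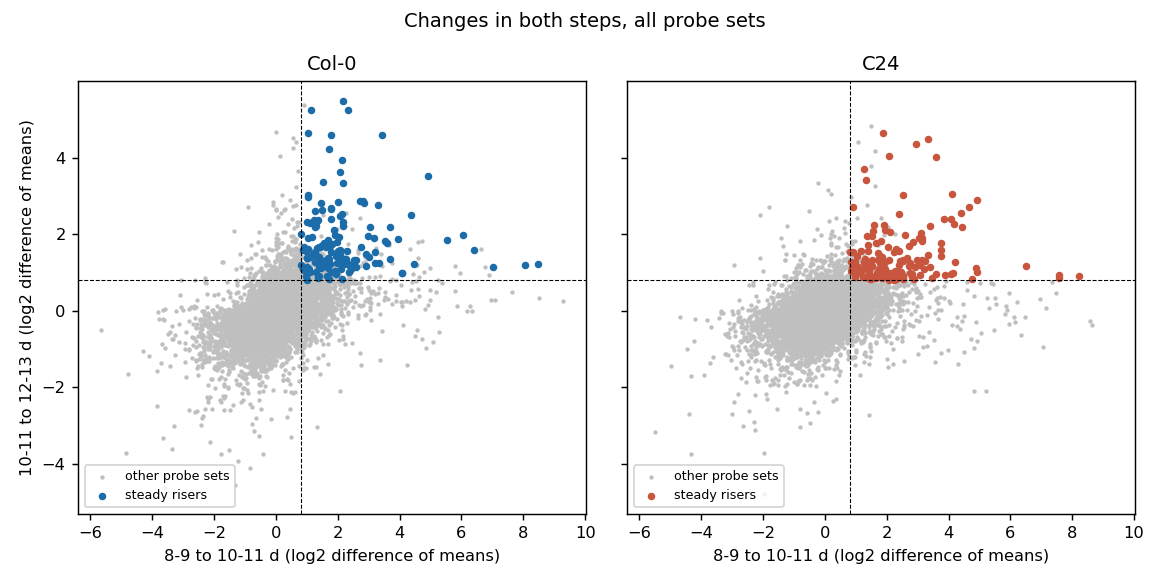
Each point is 1 probe set, with the log2 difference of group means from 8-9 to 10-11 d on the horizontal axis and from 10-11 to 12-13 d on the vertical axis, for Col-0 (left) and C24 (right). Coloured points are the 152 steady risers, grey points all others, and dashed lines mark the threshold of 0.8. In C24 many members lie close above the horizontal line, with a median second step of 1.19 against 1.51 in Col-0.

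The second step in C24 was the condition that decided membership most often. In C24, 439 probe sets rose by 0.8 or more in the second step, against 725 in Col-0, and 1255 (C24) and 1206 (Col-0) did so in the first step. Another 251 probe sets met 3 of the 4 conditions, and 175 of these missed the second step in C24, 52 the first in Col-0, 13 the second in Col-0 and 11 the first in C24. Among the members the smallest of the 4 steps was the second in C24 for 90. Among probe sets with 1 gene, those just inside the threshold were AT5G01670 and STZ, each with a smallest step of 0.81, and AT1G17620 with 0.82. AT5G01670 encodes an aldo-keto reductase family protein, STZ a zinc finger transcription factor of stress responses and AT1G17620 a LEA hydroxyproline-rich glycoprotein family protein. Those just outside were AT3G11420, AT4G18950 and AT2G47120, each with a smallest step of 0.79.

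A larger class of 587 probe sets (2.58% of all) rose over the whole course by at least 1.6, the sum of both step thresholds, in both accessions. The steady risers are 25.9% of them. Of the other 435, 193 met the threshold in the first step only, in both accessions, 20 in the second only, and 222 followed another course.

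Members are ranked and named below only among the 85 with 1 gene, and some unlisted probe sets, the one with the largest smallest step included, rank above or among those named. The 8 leading members with 1 gene included lipid transfer proteins, a latex protein-like and a germin-like protein, oxidative enzymes and a LEA protein. AT2G18370 belongs to the lipid transfer protein family, small secreted proteins that bind lipids. Its log2 signal in the 3 Col-0 pools was 4.37, 4.57 and 4.38 at 8-9 d, 9.05, 5.95 and 8.61 at 10-11 d and 12.38, 12.59 and 12.38 at 12-13 d. In the C24 pools it was 5.51, 5.56 and 5.18, then 9.11, 10.50 and 10.62, then 12.84, 12.83 and 12.72. The C24 pools were above all Col-0 pools at each age, and at 10-11 d the Col-0 pools were far apart, with pool 2 lowest. The steps were 3.43 and 4.58 in Col-0 and 4.66 and 2.72 in C24.

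AT3G58550, of the same family, read 4.73, 4.94 and 4.87 in Col-0 at 8-9 d, 8.50, 5.34 and 7.20 at 10-11 d and 12.23, 12.62 and 12.63 at 12-13 d. C24 pools read 4.90, 4.76 and 5.20, then 7.37, 8.96 and 9.32, then 12.70, 12.43 and 12.56. The accessions overlapped at all 3 ages, and both had 1 pool at 10-11 d well below its companions, pool 2 in Col-0 and pool 1 in C24. Its second step in Col-0, 5.48, is the largest second step of any member in that accession, against 4.02 in C24. The first step was 2.16 in Col-0 and 3.60 in C24.

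A neighbouring pair of members encodes major latex protein-like proteins, a family related to the birch pollen allergen Bet v 1. AT1G14940 read 3.90, 3.97 and 4.04 at 8-9 d in Col-0, 6.44, 5.58 and 6.84 at 10-11 d and 11.49, 11.60 and 11.46 at 12-13 d. In C24 its pools read 4.06, 3.88 and 4.34, then 6.91, 7.57 and 7.84, then 12.08, 11.81 and 11.90 at the same ages. From near the floor of the scale it rose more in the second step than in the first, by 5.23 after 2.32 in Col-0, and by 4.49 after 3.34 in C24. AT1G14930, the adjacent gene, had the same order of steps in Col-0, 1.79 and then 4.58, and the opposite order in C24, 4.13 and then 3.05. Its C24 pools were 7.42, 7.98 and 7.97 at 10-11 d, all above the Col-0 pools of 5.83, 5.57 and 6.07. At 8-9 d the C24 pools, 3.67, 3.69 and 3.63, were all below those of Col-0, 3.87, 4.13 and 4.09. These 8-9 d values all lie near the floor of the scale. AT1G14950, the next gene of the same family, rose by 5.81 and 0.51 in Col-0, by 3.63 and 0.34 in C24, and so is not a member.

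Germin-like proteins are secreted proteins of the cupin fold, several of which have superoxide dismutase activity. AT3G04150, a germin-like gene, read 4.05, 4.31 and 4.27 at 8-9 d, 6.95, 6.43 and 7.36 at 10-11 d and 9.79, 9.81 and 9.74 at 12-13 d in Col-0. The C24 pools read 3.70, 3.83 and 3.84, then 8.12, 8.30 and 8.24, then 10.45, 10.39 and 10.38. C24 was the lower accession at 8-9 d and the higher at both later ages, with no overlap at any age. The 8-9 d values were toward the lower end of the scale. AT3G04170, a germin-like gene 2 genes away, took most of its rise in the first step, 6.42 of 8.00 in Col-0, 6.50 of 7.66 in C24. A probe set that reads a pair of further germin-like genes of that cluster also met the rule, and signal from close copies cannot be separated there.

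AT3G15670 encodes a LEA protein and had the largest smallest step of the LEA members. Its Col-0 pools were at 5.77, 5.21 and 6.23 at 8-9 d, 10.21, 9.65 and 10.49 at 10-11 d and 12.79, 12.58 and 12.52 at 12-13 d. The C24 pools were at 6.29, 6.57 and 6.01, then 10.31, 10.71 and 10.34, then 12.68, 12.53 and 12.93. The accessions overlapped at every age, and the first step held 63.6% of the rise in Col-0 and 64.8% in C24.

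AT1G30700 belongs to the berberine bridge enzyme-like family of flavin oxidases. In Col-0 it read 4.03, 4.03 and 4.11, then 6.39, 5.31 and 6.86, then 10.26, 9.88 and 10.24 at the 3 ages in turn. C24 had 3.95, 4.10 and 4.07, then 7.67, 8.68 and 8.06, then 10.49, 10.49 and 10.63. The accessions shared a starting level, and at 10-11 d every C24 pool lay above every Col-0 pool, by 1.95 between the means, which narrowed to 0.41 at 12-13 d.

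CYP78A9, a cytochrome P450 known as a regulator of reproductive organ size, was the leading member that ran the other way. Col-0 pools were at 4.54, 4.84 and 4.59, then 10.77, 10.27 and 11.07, then 12.75, 12.65 and 12.64 at the successive ages. C24 pools were at 5.44, 5.48 and 5.61, then 8.68, 8.96 and 9.05, then 11.13, 11.06 and 11.15. C24 started 0.86 above Col-0 and ended 1.57 below it, the groups being apart at all 3 ages, as the first step was 6.05 in Col-0 and 3.38 in C24. AT3G19920, the last of these 8, rose by 2.18 and 2.33 in Col-0, while C24 rose by 3.13 and 1.91.

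**Figure D2:**
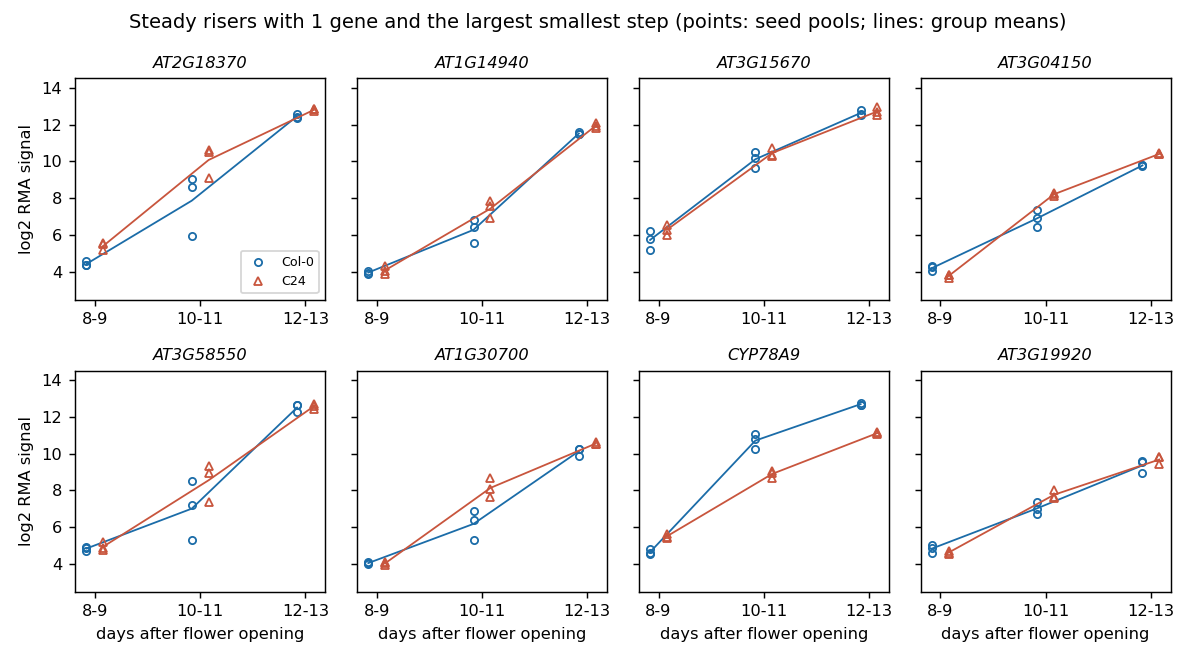
Log2 RMA signal (vertical axis) of the 8 steady risers that lead among those with 1 gene against the age of the seeds in days after flower opening (horizontal axis). Each symbol is 1 pool and lines join the group means, for Col-0 and C24. The Col-0 pools of 10-11 d are widely spread for AT2G18370, from 5.95 to 9.05, and for AT3G58550, from 5.34 to 8.50.

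That spread was shared by most members and followed the pools. In Col-0 at 10-11 d, pool 2 was the lowest of the 3 for 145 of the 152 members, against 31.8% of all probe sets, and pool 3 the highest for 127, against 36.4%. The median range between the 3 pools was 0.467 for members and 0.176 for all probe sets. Expressed as the percentage of the rise from 8-9 to 12-13 d that a pool had reached, the median member stood at 53.1, 46.1 and 59.5% in Col-0 pools 1, 2 and 3 (52.9% ± 6.72, SD, n = 3). In the C24 pools of that age it stood at 59.9, 63.6 and 63.3% (62.3% ± 2.04, SD, n = 3). Every C24 pool was therefore above every Col-0 pool, though pool 3 of Col-0 and pool 1 of C24 were close. In C24 at the same age, pool 1 was the lowest for 91 members and pool 2 the highest for 81, and the median range was 0.327 against 0.218 over all probe sets. At 12-13 d the median range of members, 0.260 in Col-0 and 0.197 in C24, was near that of all probe sets, 0.251 and 0.190.

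**Figure D3:**
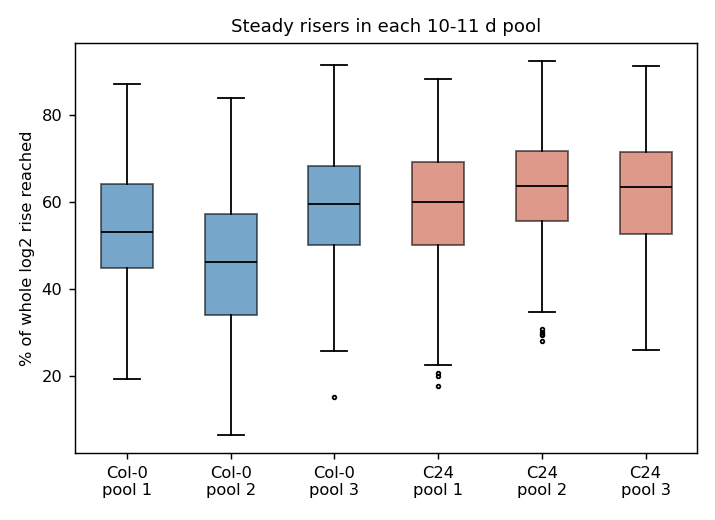
Percentage of the whole log2 rise reached in each of the 6 pools of 10-11 d, as box plots over the 152 steady risers (line: median; box: quartiles; points: members outside the whiskers). The medians were 53.1, 46.1 and 59.5% in the Col-0 pools and 59.9, 63.6 and 63.3% in the C24 pools.

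The result without the low Col-0 pool was close in number. Leaving out pool 2 of Col-0 at 10-11 d gave 156 steady risers, 148 of them among the 152. Over the original 152, the median first step was then 55.8% of the rise in Col-0. Each pool spans 2 days of age, and the age within that span is not given for single pools.

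Across members, the share of the rise taken by the first step was 51.9% at the median in Col-0 and 62.6% in C24. Col-0 shares ran from 17.9 to 87.4%, C24 shares from 25.3 to 90.1%. The first step was the larger in both accessions for 78 members, the second in both for 28, the first only in C24 for 42 and the first only in Col-0 for 4. The share was higher in C24 for 121 of 152 members (79.6%), by 7.98 percentage points at the median. Among the other 435 whole-course risers it was higher in C24 for 364 (83.7%), a share near that of the members. Their median shares were 67.8% in Col-0 and 79.6% in C24. The whole rise was the larger in C24 for 67 members and in Col-0 for the rest.

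**Figure D4:**
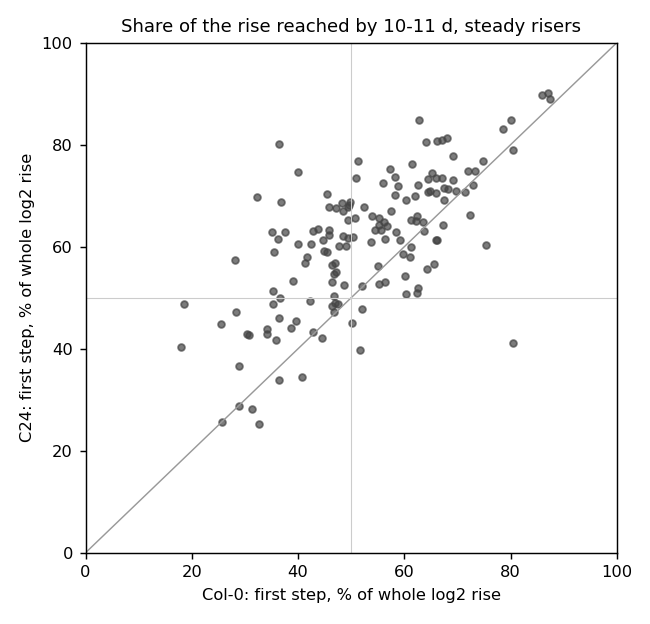
Share of the whole log2 rise that fell in the first step, in percent, for Col-0 (horizontal axis) and C24 (vertical axis), each point being 1 of the 152 steady risers. The diagonal marks equal shares and the grey lines mark 50%. Above the diagonal lie 121 members.

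Among members with 1 gene, the most even climbs were those of AT3G58450, AT4G18530, AT4G38810 and AT5G16460. AT3G58450, of the universal stress protein family, read 4.95, 4.77 and 4.92 in Col-0 at 8-9 d, 6.85, 6.54 and 7.15 at 10-11 d and 8.64, 8.68 and 8.63 at 12-13 d. In C24 the values were 4.91, 4.91 and 4.69, then 6.48, 6.98 and 6.88, then 9.18, 8.63 and 8.89. The accessions overlapped at every age and the steps were 1.96 and 1.81 in Col-0 and 1.94 and 2.12 in C24. AT4G38810 encodes a calcium sensor that binds SnRK2 kinases, the kinases that act in abscisic acid and drought signalling. It climbed from 8.36, 8.19 and 8.37 through 9.16, 9.24 and 9.41 to 10.30, 10.36 and 10.35 in Col-0. The C24 pools ran from 8.51, 8.56 and 8.41 through 9.34, 9.55 and 9.60 to 10.47, 10.47 and 10.72. C24 was apart from Col-0, and above it, at 8-9 and 12-13 d. AT4G18530 rose by 1.11 and 1.02 in Col-0, against 1.10 and 1.01 in C24. Altogether 25 members had a first step within 10 points of 50% in both accessions.

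At the other end stood members that rose mainly late, in Col-0 alone or in both accessions. These were chosen after their values were seen. FACT encodes a transferase that joins caffeic acid to fatty alcohols, a class of waxes found with suberin. It had the lowest first-step share in Col-0, 17.9%, and 40.3% in C24. Its pools read 5.21, 5.35 and 5.24, then 7.27, 5.72 and 6.23, then 11.50, 11.79 and 11.66 in Col-0 at the successive ages. In C24 they read 5.09, 5.10 and 5.29, then 6.78, 8.50 and 9.00, then 12.53, 12.54 and 12.26. The spread at 10-11 d was wide in both accessions, and the accessions overlapped there. BGLU19, a beta-glucosidase, rose by 1.05 and 4.64 in Col-0, while C24 rose by 2.41 and 2.52, so that C24 was 1.10 above Col-0 at 10-11 d and 1.02 below it at 12-13 d, without overlap at either age. The short-chain dehydrogenase family genes AT1G54870 and AT3G05260 rose mainly late in both accessions. AT1G54870 rose by 1.73 and 4.23 in Col-0, against 1.88 and 4.63 in C24. AT3G05260 had first-step shares of 25.8% and 25.7%.

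A locus of a gene list counts here as measured only where the gene table pairs a probe set with that locus alone. Unlisted probe sets may read further loci of the lists, so the list counts below are minima. Of the LEA list, 35 of 51 loci were measured and 6 were steady risers (background 0.668% of all probe sets), a count that the rule itself sets. Besides AT3G15670 they were AT3G17520, AT1G72100, AtLEA4-1, LEA4-5 and AT4G21020. AT3G17520 rose by 3.17 and 1.90 in Col-0, while C24 rose by 2.12 and 2.05. For AT4G21020 the first step was the larger, 3.19 against 1.25 in Col-0 and 2.83 against 0.95 in C24. LEA4-5, of the group 4 LEA proteins, had the smaller first step in both, 1.04 then 1.39 in Col-0 and 0.97 then 1.27 in C24. The whole list did not move in this way. Its median steps were 0.14 and 0.44 in Col-0 and 0.29 and 0.32 in C24, 11 of the 35 met the whole-course threshold, 2 of these rose in the first step only and 1 in the second only. AT3G02480, for example, took 4.54 in the first step and 0.77 in the second in Col-0, and the dehydrin LTI30 took 0.66 and 3.24. AT5G44310 missed membership by its first step in Col-0, 0.77.

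Storage protein genes gained in the first step and by no more than 0.35 in the second in either accession. Of the list, 5 of 13 loci were measured and 0 were steady risers, the likely count for so short a list at the background of 0.668%. AT1G03890, of the cruciferin family, gained 4.06 and then 0.11 in Col-0, 2.44 and then 0.01 in C24. PAP85, a vicilin-like protein, gained 1.79 and 0.01 in Col-0. The 5 genes averaged 11.7 in Col-0 and 11.8 in C24 at 12-13 d, with AT2G18540 low at 5.53 and 5.60. The others ran from 12.8 to 13.6 at that age, so the labelled tissue carried these seed transcripts at a high level.

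Oil body genes gave 2 steady risers of 8 measured (of 23 listed, background 0.668% of all probe sets). AT5G16460 encodes a seipin, a protein of the endoplasmic reticulum at which lipid droplets form, and was also among the most even climbs of members with 1 gene. It read 4.43, 4.32 and 4.58 at 8-9 d, 5.93, 5.36 and 5.90 at 10-11 d and 7.25, 7.13 and 7.17 at 12-13 d in Col-0. In C24 it read 5.12, 5.27 and 4.89, then 6.36, 6.53 and 6.27, then 7.62, 7.64 and 7.97. The C24 pools were above all Col-0 pools at each age, by 0.64, 0.66 and 0.56 between the means. AT2G25890, an oleosin family gene, rose by 1.63 and 1.32 in Col-0, against 1.65 and 0.87 in C24. The abundant oleosin OLEO3, by contrast, changed by 0.12 and -0.47 in Col-0 from a level of 13.0. The list's median steps were 0.17 and 0.07 in Col-0 and 0.16 and 0.12 in C24.

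Among transcription factors, AGL67 was the 1 steady riser of the 3 measured maturation regulators (of 19 listed, background 0.668% of all probe sets). AGL67 is a MADS box protein of seed maturation and desiccation tolerance. It read 4.40, 3.97 and 4.23 in Col-0 at 8-9 d, 8.28, 8.08 and 8.44 at 10-11 d and 9.31, 9.22 and 9.24 at 12-13 d. C24 pools read 4.90, 4.88 and 4.09, then 8.31, 8.04 and 8.28, then 9.19, 9.08 and 9.23. The accessions overlapped at every age, and 80.4% of the rise in Col-0 and 79.0% of that in C24 fell in the first step. EEL, a bZIP factor, stopped after the first step, with 1.13 and 0.07 in Col-0. STZ, at the edge of the rule, rose by 1.75 and 1.22 in Col-0, while C24 rose by 2.07 and 0.81. AT1G75490 and AT1G72570 encode AP2/ERF family factors, and were singled out after their values were seen. AT1G75490, of the DREB2 group of dehydration-responsive factors, rose in near-equal steps in Col-0, 2.16 and 2.21, and by 2.72 and 1.69 in C24. AT1G72570, of the AINTEGUMENTA-like group, rose mainly late, by 1.53 and 3.35 in Col-0, against 1.34 and 3.42 in C24.

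Further members of known function, also chosen after their values were seen, act in cell walls, in defence and in small-molecule chemistry. EXPA15, an expansin that loosens cell walls, started from a high level, 9.14 in Col-0, and rose by 1.45 and 1.12, with 1.74 and 1.09 in C24. IRX15-L, needed for xylan in secondary walls, rose by 0.91 and 1.67 in Col-0, while C24 rose by 1.28 and 1.22. CCR2, a cinnamoyl-CoA reductase of the lignin pathway, rose mainly late in Col-0, 1.28 and 2.20, and mainly early in C24, 2.76 and 1.26. The class V chitinase ChiC rose by 1.27 and 2.20 in Col-0 and in equal steps of 1.83 in C24. AT4G19720, a chitinase-family gene, had a first-step share of 40.1% in Col-0 and 74.7% in C24. AT1G62660, a vacuolar invertase, rose by 1.45 and 2.81 in Col-0, against 1.53 and 1.96 in C24. MT1C, a metallothionein that binds metal ions, rose mainly early in both, 2.90 and 1.16 in Col-0 and 2.48 and 1.02 in C24. AT3G58060, a metal tolerance protein family transporter, rose by 1.36 and 0.86 in Col-0, while C24 rose by 1.31 and 0.88.

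On the chromosomes 3 pairs of members lay within 3 annotated genes of each other among probe sets with 1 gene. These were the latex protein-like pair, the germin-like pair and NAMT1 with the adjacent AT5G04380. NAMT1 methylates nicotinate and both belong to the SABATH family of methyltransferases. NAMT1 rose by 1.28 and 1.47 in Col-0, against 1.71 and 1.52 in C24. AT5G04380 rose mainly in the first step, by 3.70 and 1.34 in Col-0, while C24 rose by 3.38 and 1.14. The 210 measured genes that lie within 3 genes of a member and are not members had median steps of -0.01 and 0.02 in Col-0 and 0.02 and -0.01 in C24, and 8 of them met the whole-course threshold. AT2G32190 is read by its own probe set and by one shared with a neighbouring gene, and both met the rule, the shared one with 1.79 and 1.00 in Col-0 and 4.14 and 1.00 in C24.

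The accession difference averaged over the 3 ages was not used by the rule, and in this balanced design its contrast is orthogonal to those of the steps. Its error is separate from theirs only where groups spread alike, and the members' median SD in Col-0 was 0.242 at 10-11 d, against 0.157 at 8-9 d and 0.135 at 12-13 d. A larger share of members than of all probe sets was called higher in C24. By limma over all 22746 probe sets, at an adjusted p below 0.05, 77 of the 152 (50.7%) were higher in C24, against 20% of all probe sets, and 21 (13.8%) were lower, against 13.3% of all. The other 54 were not called, and 33.3% of all probe sets were called in either direction. The members' median difference was 0.24 on the log2 scale, against 0.03 over all probe sets, with a range of -2.48 to 1.74. The other 435 whole-course risers had 208 higher (47.8%), 69 lower (15.9%) and a median of 0.17, shares near those of the members. Scaled to 7 reference genes, 62 members were higher and 29 lower, against 11.35 and 21.3% of all probe sets, and the median of all probe sets moved from 0.03 to -0.05. These genes are not a neutral scale. As deposited, GAPC2 and AT2G28390 among them were called higher in C24, by 0.24 and 0.15 (limma adjusted p 0.0012 and 0.0266), and 0 lower. At 12-13 d the reference mean was 8.40 for Col-0 against 8.56 for C24, whereas at 8-9 d both accessions stood at 8.65. Scaling to them therefore lowers C24 against Col-0 at the last age. Among probe sets with a group mean of at least 6, which takes in all 152 members, the calls were 31.5% for higher in C24 and 19.5% for lower, and 78 members were higher and 22 lower in that fit. Without Col-0 pool 2 of 10-11 d the counts were 66 higher and 25 lower.

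Much of the difference stood at 10-11 d. The median of C24 minus Col-0 over members was 0.12 at 8-9 d, 0.40 at 10-11 d and 0.10 at 12-13 d, against 0.01, 0.05 and 0.02 over all probe sets and 0.13, 0.33 and -0.03 over the other whole-course risers. All C24 pools lay above all Col-0 pools for 46 members at 8-9 d (19.2% of all probe sets), for 75 at 10-11 d (21.4%) and for 52 at 12-13 d (19.7%). The reverse held for 20 (14.6%), 15 (13.8%) and 36 (14.4%). C24 was above at all 3 ages for 22 members (4.68%) and below at all 3 for 8 (3.93%). Group means at single ages enter the rule, so these are descriptions without a test.

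Among members with 1 gene, the 5 called with the highest average in C24 were enzymes of several families and a lipid transfer protein. AT5G44380, berberine bridge enzyme-like, had C24 pools at 6.64, 6.99 and 6.55, then 8.55, 8.38 and 8.75, then 10.14, 9.93 and 9.79 at the successive ages. Col-0 pools were at 4.52, 4.10 and 4.53, then 6.53, 6.18 and 6.46, then 9.02, 9.40 and 9.31. The gap shrank from 2.34 at 8-9 d to 0.71 at 12-13 d with no overlap at any age, and averaged 1.74 (SE 0.08, limma adjusted p 8.21e-13). AT3G56350, a manganese superoxide dismutase family gene, averaged 1.10 higher in C24 (SE 0.09, limma adjusted p 3.73e-09), with gaps of 2.16, 0.86 and 0.27. The lipid transfer protein gene AT2G18370 averaged 1.18 (SE 0.28, limma adjusted p 0.00258). AT3G57020, of the strictosidine synthase-like family, averaged 1.01 and AT3G04010, of glycosyl hydrolase family 17, 0.98 (limma adjusted p 6.86e-10 and 4.17e-09). For these 5 genes the C24 pools were above the Col-0 pools at all 3 ages.

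Lower in C24 by the widest margin was AT2G32190, which encodes a small cysteine-rich transmembrane protein. Col-0 pools were at 7.95, 7.77 and 7.61, then 9.53, 9.28 and 9.72, then 10.82, 10.81 and 10.99. C24 pools were at 4.31, 3.91 and 3.56, then 7.37, 7.94 and 7.76, then 9.12, 9.13 and 9.07. C24 started near the floor, 3.85 below Col-0, rose by 3.76 in the first step against 1.73 in Col-0, and kept a gap of 1.76 at 12-13 d. The average difference was -2.48 (SE 0.09, limma adjusted p 9.76e-15). Sequence differences between C24 and the array's probes could not be examined with the files used here, and their part in such values was not tested. CYP78A9 averaged -0.84 (limma adjusted p 5.95e-08), AT5G47635 -0.78 (limma adjusted p 1.1e-07) and the protein kinase family gene AT5G35960 -0.71 (limma adjusted p 2.32e-07). AtLEA4-1 averaged -0.64 (SE 0.12, limma adjusted p 0.000347), with C24 below Col-0 at each age.

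Other LEA members differed in direction. AT1G72100 averaged 0.59 higher in C24 (limma adjusted p 2.53e-05) and LEA4-5 0.35 higher (limma adjusted p 0.00257). AT3G15670 was called at 0.33 (limma adjusted p 0.048), a call lost without any 1 of 12 of the 18 arrays, with adjusted p up to 0.115, and under each other scaling, with 0.142 for the reference genes. AT3G17520 with 0.08 and AT4G21020 with -0.04 were not called (limma adjusted p 0.631 and 0.797). Of the genes followed above, AT3G04150 averaged 0.50 (limma adjusted p 6.96e-05), AT1G14930 0.68 (8.42e-07), AT1G14940 0.56 (0.00199), AT1G30700 0.78 (0.000305) and FACT 0.79 (0.00663), all higher in C24 on average. The FACT pools of 10-11 d were spread (SD 0.79 in Col-0 and 1.16 in C24). Whether its call holds in other settings was not examined. At 8-9 d, AT3G04150 and AT1G14930 were lower in C24, without overlap, but all their pools of that age read under 4.5, toward the floor. AT3G58550, whose pools of 10-11 d were spread, was not called at 0.57 (limma adjusted p 0.141), but was called without Col-0 pool 1 or C24 pool 1 of that age, at 0.82 and 0.77 (limma adjusted p 0.00968 and 0.0302). The even climbers AT5G16460 and AT4G18530 were higher in C24, by 0.62 and 0.28 (limma adjusted p 2.23e-06 and 0.000514). AGL67 and AT3G58450 were not called, at 0.09 and 0.05 (limma adjusted p 0.492 and 0.723), though AGL67 was called at 0.18 without C24 pool 3 of 8-9 d (limma adjusted p 0.0411).

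**Figure D5:**
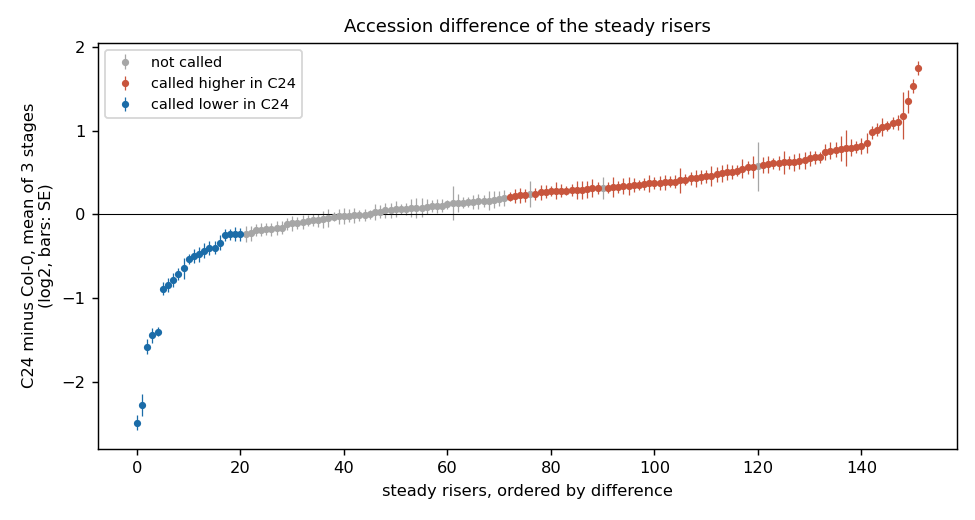
C24 minus Col-0 averaged over the 3 ages, on the log2 scale (vertical axis), for the 152 steady risers in order of their difference (horizontal axis), with the standard error as a bar and colours for the limma call. The 77 called higher reach 1.74 and the 21 called lower reach -2.48.

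Other measures moved with age or accession beside these results. Transcripts of seed coat flavonoid genes, of which 3 of 16 were measured, were lower at the later ages. Their mean log2 signal ran from 9.46 to 9.62 over the Col-0 arrays at 8-9 d and from 6.91 to 7.24 at 12-13 d. In C24 it ran from 9.01 to 9.16 and from 7.25 to 7.39. BAN and DFR moved most, from Col-0 means of 11.7 and 10.5 at 8-9 d to 7.39 and 7.92 at 12-13 d. UGT80B1 went from 6.58 to 5.92. The mean of the 2 measured of 11 mucilage genes was 10.4 to 10.6 (Col-0) and 9.08 to 9.60 (C24) over the arrays at 8-9 d. At 12-13 d it lay between 7.54 and 7.84 in both. These genes differed widely in level, ARA12 with Col-0 means of 12.5 at 8-9 d and 10.4 at 12-13 d, AT3G50990 with 8.46 and 5.02. The mean of the 2 measured endosperm genes, AGL62 and IKU2 (of 9 listed), stayed between 3.68 and 4.05 over all arrays. Both were low, with Col-0 means at 8-9 d of 3.33 for AGL62 and 4.42 for IKU2. The lowest values of the arrays were 2.65 to 2.77. A flat signal so near the floor does not show how much endosperm the seeds held. Small heat shock proteins, 7 measured of 16, held 0 steady risers, the likely count for so short a list at the background of 0.668%. The silique wall list and the lists for suberin, raffinose sugars and abscisic acid are not analysed here. The gene table pairs none of their loci alone with a probe set, which leaves open whether unlisted probe sets read them.

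RNA controls moved too. The log2 difference between the 3' and the 5' actin probe sets, a measure of RNA integrity and labelling, fell with age, in Col-0 from 1.84 through 1.29 to 0.93, in C24 from 0.85 through 0.43 to -0.28. For ubiquitin it was 0.88, 0.52 and 0.44 in Col-0 and 0.94, 0.91 and 0.77 in C24, and for GAPDH it was 0.89, 1.28 and 1.77 in Col-0 and 0.94, 1.44 and 1.19 in C24. The part of these controls and of the seed coat transcripts in the rises and in the accession differences was not tested.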

How the data were processed

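The deposited log2 signals were made with RMA from Affymetrix arrays, per the submitters' processing notes, its version being not given in the sources used here. The method corrects background, gives all arrays nearly the same distribution and summarises the probes of a set, so a general shift of transcript levels cannot appear. Of 22810 rows, 64 control probe sets were left out. The gene table of the platform names 13513 of the remaining 22746 with 1 gene, and locus order came from the RefSeq gene table. Group means and steps were computed in Python 3.11.15. The 6 group means of the 18 arrays were modelled in R 4.3.3 with limma 3.58.1 (lmFit, eBayes, 12 residual and 8.331 prior degrees of freedom), with Benjamini-Hochberg adjustment of p-values over all 22746 probe sets. Arrays have no read depth, and their number limits the precision. On simulated data this fit recovered 97 and 100% of 100 planted accession differences of 0.5 and 1, with 11 false calls. The simulated noise was independent between arrays, with the same spread in all groups of a probe set. It therefore did not cover the unequal spread, shared within pools, that the members showed. No pairs of arrays were identical (within a group, r of 0.993 to 0.997).

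The members and the gene lists were chosen with earlier results of these data known. Only probe sets with 1 gene were ranked and named: the 8 members with the largest smallest step, the 4 most even, up to 5 called members at each end of the accession difference, members of the lists, neighbours, transcription factors and the 3 nearest such probe sets on each side of the threshold; other names are marked. Alternatives were leaving out each array, 3 other scalings, step thresholds of 0.6 and 1, medians, separate stage groups, a dim filter at 6, a replicate block, array weights and a trended prior. Promoter and protein sequences were not analysed here.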

Additional observations from a re-analysis of the deposited data

How the results depend on the processing

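With a step threshold of 0.6 or 1 in place of 0.8, 284 or 88 probe sets met the rule. Leaving out 1 array at a time gave 147 to 156, and 116 of the 152 met it in all 18 repeats. Reference scaling gave 178, quantile normalization 158 and median centring 160, each holding all 152, and medians gave 152, of which 144 were shared. The mean of the reference genes fell with age, more so in Col-0, and scaling to it adds that fall to the rises. The median first-step share of the original 152 lay between 49.3 and 55.8% in Col-0 and between 60.9 and 63.2% in C24 without 1 array. Calls higher in C24 numbered 66 to 80 and calls lower 20 to 25 without 1 array. Under reference scaling 68.1% of the members' calls were higher, against 78.6% as deposited, and 34.75% against 60.1% of the calls over all probe sets. Other settings gave 71 to 78 higher and 22 to 26 lower. With the replicate number as a block, 77 members were higher and 22 lower. Deviations of same-numbered arrays correlated with r of -0.156 to 0.242, and 10 of 45 pairs exceeded 0.1. These values alone cannot settle whether same-numbered arrays share more than a number. Of 25 named members called, 21 kept the call in every setting and AT3G15670, AT3G19920, AT3G04170 and AT4G38810 lost it in some. Differences near 0 changed sign, and the cause was not tested. AT4G21020 (-0.04), which ranged from -0.0994 to 0.0604 without 1 array, was 0.0604 without C24 8-9 d replicate 3, 0.0057 without Col-0 10-11 d replicate 3 and 0.0044 with array weights. AT3G58450 (0.05), with a range of -0.0029 to 0.0986, was -0.0029 without Col-0 10-11 d replicate 2 and -0.0292 under reference scaling, where AT1G17620 (0.07) was -0.00897. The fit assumes one spread for all groups, and 3 pools a group limit what a difference in spread can show.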
